A study of Homo sapiens with 6 samples.

Results

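The guidance cues and receptors of the ephrin, netrin, Slit and neuropilin systems were followed in BT549 cells after transfection of BNC2 siRNA. The set was chosen by gene symbol, with earlier results of these data known, and holds 45 of the 23346 genes in the deposited count table. These are 9 EPHA receptors, 5 EPHB receptors, 5 A-type ephrins (EFNA), 3 B-type ephrins (EFNB), 3 Slits, 4 Robo receptors, 6 netrins and netrin-Gs, the 6 netrin receptors DCC, NEO1 and UNC5A to UNC5D, the repulsive guidance molecules RGMA and RGMB, and the neuropilins NRP1 and NRP2. By role, 26 encode receptors and 19 encode ligands. A gene was tested if it had a CPM (its counts scaled by library size) above 1 in at least 3 libraries, which 32 members met.

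BT549 is a triple-negative breast cancer line, labelled mesenchymal and of WT genotype, and the data come from this 1 line. Of the 6 libraries, 3 are from cells given a negative control (NC) siRNA and 3 from cells given BNC2 siRNA, each at 20 nM, with RNA taken 6 days after transfection. BNC2 encodes basonuclin-2, a zinc finger protein of the nucleus, and the comparison asks which genes depend on it. The labels name Lipofectamine 2000 as the reagent and the study's methods name RNAiMax for siRNAs. The methods call the replicates biological but do not say whether they came from separate transfections on separate days, so p-values measure the spread between these libraries.

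The BNC2 siRNA was an equal mix of 3 siRNAs, which are shown because the whole comparison rests on them. The sense strand of each, without its overhang, matched BNC2 at full length (12, 6 and 7 of its 16 transcripts in the order shown) and no other gene of GENCODE 44, and the NC siRNA matched none. On GRCh37, the assembly of hg19, they lie on the minus strand in coding sequence of BNC2, in exon 4 (chr9:16583000-16583018), exon 6 (chr9:16436834-16436852) and exon 7 (chr9:16419045-16419063). Only matches of the full length were searched for, and partial matches to other transcripts were not examined.
BNC2 siRNA (1): gacuugugaucaguguaaa
BNC2 siRNA (2): ggaagacauucuaugacaa
BNC2 siRNA (3): ccucuguacgaagccgaaa
BNC2 itself was at 65.6, 51.5 and 58.6 CPM with NC siRNA and at 35.5, 36.6 and 41.6 CPM with BNC2 siRNA (log2 fold change -0.63, SE 0.09, adjusted p = 8.2e-06). All BNC2 siRNA libraries were below all NC siRNA libraries, and the transcript was lowered in part rather than removed. As these libraries share the same siRNA mix, effects of lower BNC2 and of the siRNAs on other transcripts cannot be told apart.

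Library totals ran from 16093978 to 18246254 counts. Replicates differed by more than counting noise in every pair, so that no library was a copy of another. The mesenchymal genes VIM, FN1, CDH2 and ZEB1 were at 120 to 3418 CPM in the group means. All 4 were called higher with BNC2 siRNA, as were 36.6% of all genes tested. Over its wider signature of epithelial and mesenchymal genes the study saw no consistent trend after BNC2 knockdown. CDH2 stood at 152 ± 4.03 and 391 ± 5.08 CPM, or 1.36 on the log2 scale, and the log2 fold changes of the other 3 were 0.18 (VIM), 0.34 (ZEB1) and 0.39 (FN1). Whether they have a part in the changes of the guidance genes was not tested. The epithelial genes CDH1, EPCAM, ESRP1 and GRHL2 were at or below 0.0594 CPM. Endothelial and leukocyte markers were also near 0 (PECAM1, CDH5, TEK, PTPRC and CD3E, at most 0.555 CPM in the group means). Of the neuronal markers, SNAP25 (20.8 and 21.8 CPM), SYP and TUBB3 were present and RBFOX3 was near 0.

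Guidance molecules were first described in growing axons and vessels and are used by many migrating cells. Ephrins are membrane-bound ligands of the Eph receptor tyrosine kinases, so that both partners signal at cell contacts, A-type ephrins through a lipid anchor and B-type ephrins through a transmembrane tail. Slits are secreted ligands of Robo receptors, netrins bind DCC, neogenin (NEO1) and UNC5 receptors, RGM proteins are anchored ligands of neogenin, and neuropilins are co-receptors of class 3 semaphorins and VEGF. These systems largely act on the actin cytoskeleton and so on adhesion and movement.

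Of the 32 members tested, 12 were higher and 17 lower in BNC2 siRNA-transfected cells at an adjusted p of at most 0.05 in edgeR's quasi-likelihood test. In the same comparison 72.9% of all 12186 genes tested were called, 36.6% higher and 36.2% lower, against 90.6% of the members, 37.5% higher and 53.1% lower. A log2 fold change of at least 1 in size was reached by 18 called members (8 higher, 10 lower), or 56.3%, against a background of 18.1%. The libraries of the groups did not overlap for 29 members (90.6%), against 74.9% of all genes. As members were chosen with earlier results of these data known, contrasts with all genes, here and below, are descriptions and were not tested. Over the members the log2 fold change had a median of -0.46, against 0.00 over all genes, and the median size of the change was 1.11 against 0.44. The first of these medians was 0.029 without NC siRNA replicate 1, 0.064 without replicate 2 and -0.026 without replicate 3, where 28 members passed the filter. The filter still asked for 3 libraries there, so EPHB3, UNC5A, UNC5B and RGMA, all lower, could not pass. These fits thus cannot show how stable the median is, and no direction is read from it. Over the 25 members above 1 CPM in all libraries the median was -0.44, against 0.02 over all such genes. Of the 17 receptors tested 8 were higher and 7 lower, and of the 15 ligands 4 were higher and 10 lower. Among members above 1 CPM in all libraries these counts were 6 and 4 of 12 receptors and 3 and 9 of 13 ligands, and the difference between receptors and ligands was not tested.

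The filter on low counts bears on these figures. Of the 32 members, 25 were above 1 CPM in all 6 libraries, and of these 9 were higher, 13 lower and 3 not called, or 88.0% called (36.0% higher, 52.0% lower). Of the 11326 genes that met the same condition, 72.4% were called, 37.9% higher and 34.5% lower. A called change of at least 1 in size was seen in 11 of the 25 members (44%) and in 14.5% of those genes. EPHB3, UNC5A, UNC5B and RGMA passed through the NC siRNA libraries alone and were therefore bound to differ, all 4 being lower with BNC2 siRNA. NTNG1, EPHA6 and UNC5C lay in between. As RNA was taken from whole cultures, fewer expressing cells and less RNA per cell cannot be told apart.

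**Figure D1:**
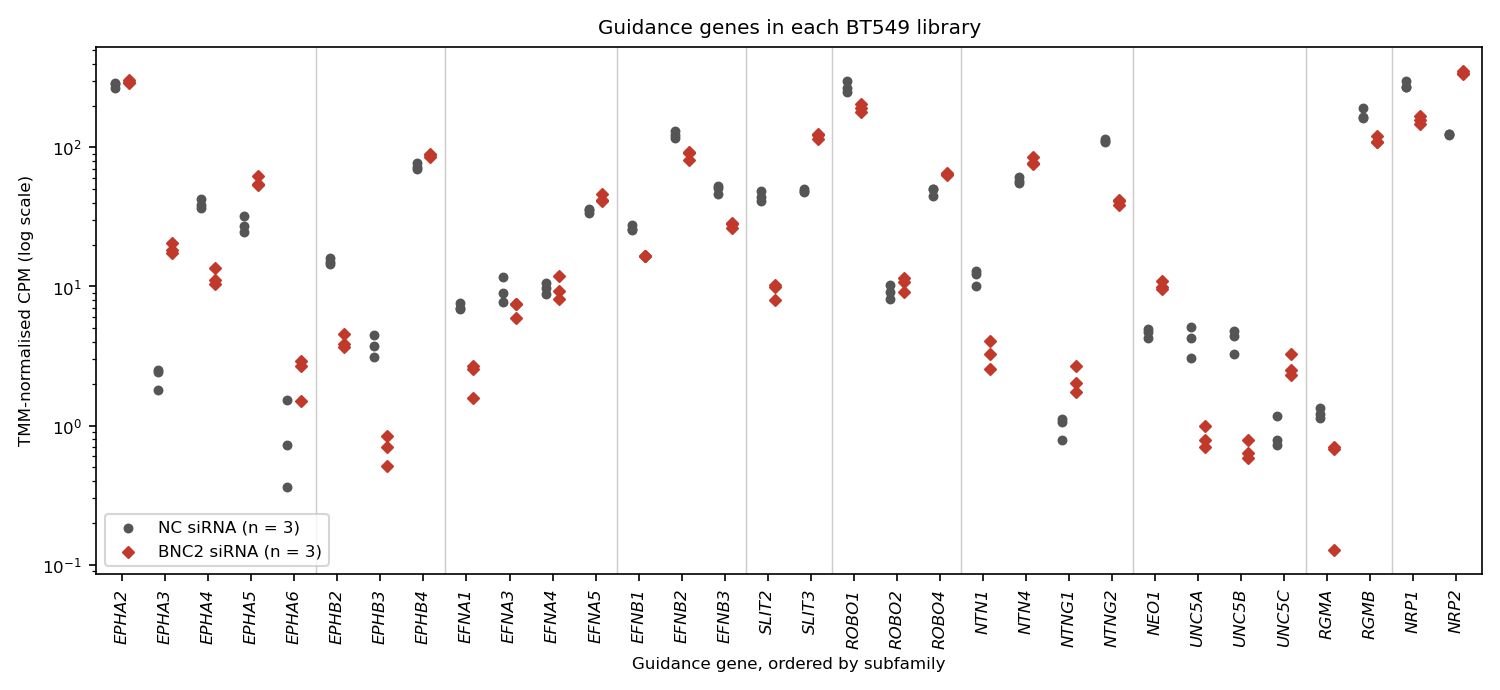
TMM-normalised CPM (log scale) of the 32 tested guidance genes in each library, grey circles for NC siRNA and red diamonds for BNC2 siRNA (n = 3 each), with thin lines between subfamilies. EPHA2, NRP1 and ROBO1 had the highest CPM with NC siRNA, and the symbols of the groups overlap for EPHA6, EFNA4 and ROBO2.

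**Figure D2:**
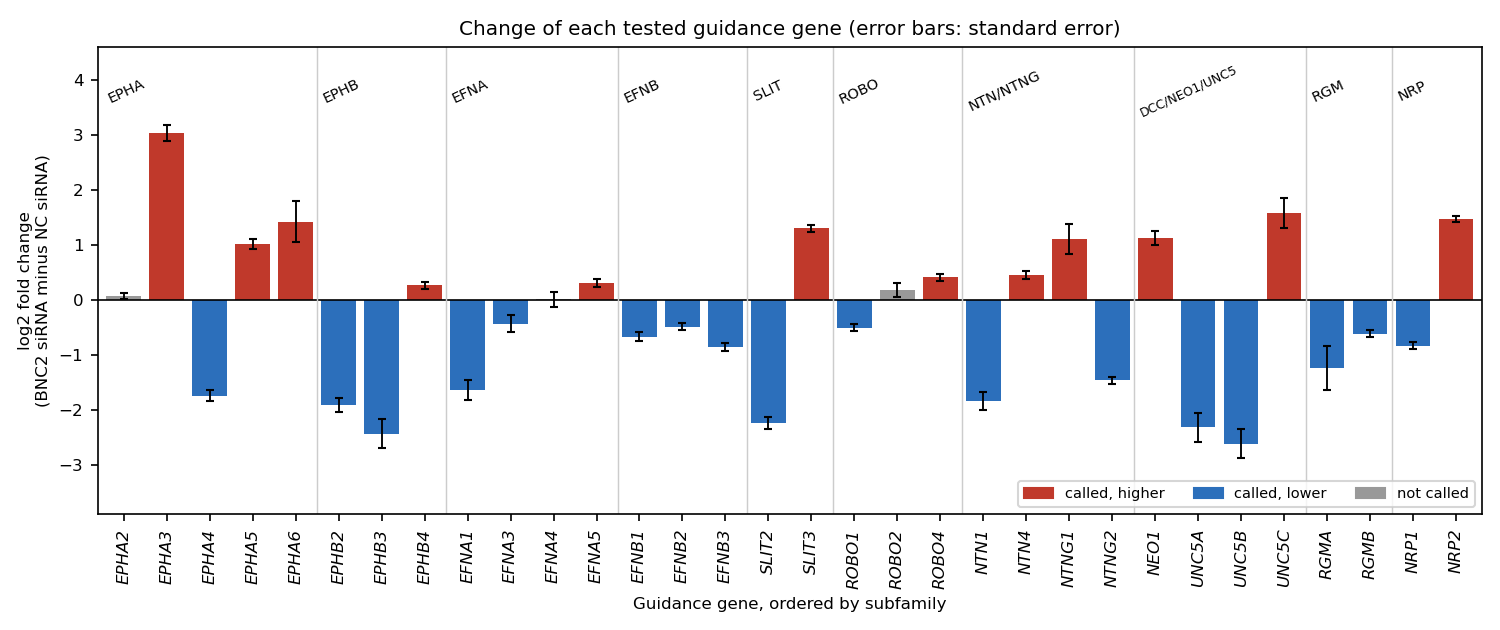
Log2 fold change of each tested guidance gene, BNC2 siRNA minus NC siRNA, with the standard error as bars, red for called higher, blue for called lower and grey for not called at an adjusted p of 0.05. The bars run from 3.04 for EPHA3 to -2.62 for UNC5B, and both directions occur in every subfamily except the B-type ephrins and the RGM genes.

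EPHA2, by far the most abundant Eph receptor of these cells, was the one tested EPHA gene that was not called. EPHA2 binds A-type ephrins and is common in breast cancer cells. It lies on the minus strand of chr1:16450832-16482564. Its level was 287, 291 and 269 CPM with NC siRNA and 304, 292 and 296 CPM with BNC2 siRNA. Although the BNC2 siRNA libraries were all higher, the log2 fold change was 0.07 (SE 0.05, adjusted p = 0.231) and became -0.0026 with scaling by total counts alone. Per kb of transcript it stood at 71.6 and 75.3 CPM, which was 87.8% ± 0.814 and 86.2% ± 1.16 (SD, n = 3) of the summed EPHA level.

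The less abundant EPHA receptors moved strongly and in both directions. EPHA3, a receptor for A-type ephrins (plus strand, chr3:89156771-89531284), rose from 2.42, 2.52 and 1.81 CPM to 17.3, 18.2 and 20.5 CPM. This 8.24-fold rise was the largest among the tested members (log2 fold change 3.04, SE 0.15, adjusted p = 1.56e-11). EPHA5 (minus strand, chr4:66185281-66536213) was at 31.9, 27.1 and 24.8 CPM and then at 54.1, 54.7 and 61.9 CPM, a log2 fold change of 1.02 (SE 0.09, adjusted p = 3.08e-08). For both genes the groups were well apart.

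EPHA4 went the other way. This receptor accepts both ephrin classes and lies on the minus strand of chr2:222282747-222438922. It was at 42.4, 38.4 and 36.8 CPM with NC siRNA and at 10.4, 11.2 and 13.6 CPM with BNC2 siRNA, 3.35-fold lower (log2 fold change -1.75, SE 0.10, adjusted p = 2.02e-10). Its place among the EPHA receptors after EPHA2 thus went to EPHA5. Per kb, EPHA4 stood at 6.16 CPM and EPHA5 at 3.35 CPM with NC siRNA, against 1.84 and 6.82 CPM with BNC2 siRNA, and EPHA3 went from 0.394 to 3.27 CPM. EPHA6 was called (log2 fold change 1.42, SE 0.37, adjusted p = 0.00265) although its libraries overlapped, with 0.361 to 1.52 CPM against 1.51 to 2.93 CPM. Its log2 fold change was 2.07 without NC siRNA replicate 1 and 1.05 without NC siRNA replicate 3, the ends of its range when single libraries were left out.

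Among the EPHB receptors, which bind B-type ephrins, EPHB4 was slightly higher, and EPHB2 and EPHB3, the other members tested, were lower. EPHB4 (minus strand, chr7:100400187-100425145), the partner of ephrin-B2 in vessels, was at 71.8, 77.6 and 69.6 CPM with NC siRNA and at 88.9, 85.4 and 88.6 CPM with BNC2 siRNA. The groups did not overlap, and the log2 fold change was 0.26 (SE 0.06, adjusted p = 0.00125). EPHB2 (plus strand, chr1:23037332-23247993) fell from 14.9, 14.6 and 16.1 CPM to 3.84, 4.57 and 3.69 CPM, a 3.75-fold difference (log2 fold change -1.91, SE 0.13, adjusted p = 1.01e-09). EPHB3 fell from 3.77 ± 0.692 to 0.685 ± 0.169 CPM (log2 fold change -2.44, SE 0.27, adjusted p = 3.77e-07), a gene that passed the filter through the NC siRNA libraries alone and was also called without the filter (-2.41). As a share of the summed EPHB level per kb, EPHB4 went from 87.2% ± 0.977 to 97.4% ± 0.495 (SD, n = 3).

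All 3 B-type ephrins fell. EFNB2 (minus strand, chr13:107142093-107188010) was the most abundant of them, at 132, 122 and 117 CPM with NC siRNA and 81.0, 92.5 and 91.4 CPM with BNC2 siRNA (log2 fold change -0.49, SE 0.07, adjusted p = 6.52e-06). The decrease was larger for EFNB3, from 50.2 ± 3.69 to 27.7 ± 1.22 CPM (log2 fold change -0.86, SE 0.08, adjusted p = 4.39e-08), and lay in between for EFNB1, from 26.4 ± 1.31 to 16.6 ± 0.109 CPM (log2 fold change -0.67, SE 0.08, adjusted p = 2.21e-06). No BNC2 siRNA library reached an NC siRNA library for any of these 3 genes, and the groups were likewise apart for 74.9% of all genes tested. The summed level of the B-type ephrins per kb fell from 48.4 ± 1.53 to 31.3 ± 1.24 CPM (SD, n = 3), a ratio of 0.647.

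The A-type ephrins did not move together. EFNA1 (plus strand, chr1:155100352-155107375), the preferred ligand of EPHA2, was at 7.04, 7.56 and 6.92 CPM and then at 2.68, 2.54 and 1.59 CPM, which is 3.13-fold lower (log2 fold change -1.65, SE 0.18, adjusted p = 4.34e-07). EFNA5 (minus strand, chr5:106712595-107006638), which binds several EPHA receptors, rose from 35.2, 35.9 and 33.5 CPM to 42.2, 46.3 and 41.4 CPM (log2 fold change 0.31, SE 0.07, adjusted p = 0.00121). Per kb, EFNA4 was at 7.76 CPM and EFNA5 at 6.49 CPM with NC siRNA, and with BNC2 siRNA they were at 7.79 and 8.06 CPM.

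EFNA4 itself was not called, with 9.73 ± 0.843 and 9.77 ± 1.96 CPM and overlapping groups (log2 fold change 0.01, SE 0.14, adjusted p = 0.96). EFNA3, its neighbour on the same strand of chromosome 1, was at 9.43 ± 1.99 and 6.94 ± 0.88 CPM (log2 fold change -0.44, SE 0.16, adjusted p = 0.0194). The call of EFNA3 was lost without NC siRNA replicate 3 (log2 fold change -0.28, adjusted p = 0.12) and without BNC2 siRNA replicate 3 (-0.34, adjusted p = 0.0851).

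Slit genes changed in opposite directions. SLIT2 and SLIT3 are secreted Robo ligands, and each carries a gene of the microRNA miR-218 in an intron. SLIT2 (plus strand, chr4:20253528-20622184) was at 48.5, 44.2 and 40.9 CPM with NC siRNA and at 8.03, 10.2 and 10.0 CPM with BNC2 siRNA. This was a 4.73-fold decrease (log2 fold change -2.24, SE 0.10, adjusted p = 1.02e-11). SLIT3 (minus strand, chr5:168088745-168728143) rose 2.46-fold, from 48.8, 50.2 and 47.9 CPM to 123, 115 and 124 CPM (log2 fold change 1.30, SE 0.06, adjusted p = 1.45e-11). With NC siRNA both genes were close to each other in level, at 5.53 CPM per kb for SLIT2 and 5.04 CPM per kb for SLIT3. With BNC2 siRNA they were at 1.17 and 12.4 CPM per kb, so that the share of SLIT2 in the summed Slit level fell from 52.2% ± 1.99 to 8.61% ± 1.19 (SD, n = 3).

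The windows of 250 bases before the RefSeq starts of both Slit genes (GRCh38.p14) are shown because the genes moved apart, with the letters GGGCGG, read on either strand, in capitals. GGGCGG is the core of the GC box. The SLIT2 window (chr4:20251655-20251904, plus strand) holds it several times, at 77.2% G and C with 30 CpG, and the SLIT3 window (chr5:169301140-169301389, minus strand) does not hold it, at 62.8% and 16 CpG.
SLIT2: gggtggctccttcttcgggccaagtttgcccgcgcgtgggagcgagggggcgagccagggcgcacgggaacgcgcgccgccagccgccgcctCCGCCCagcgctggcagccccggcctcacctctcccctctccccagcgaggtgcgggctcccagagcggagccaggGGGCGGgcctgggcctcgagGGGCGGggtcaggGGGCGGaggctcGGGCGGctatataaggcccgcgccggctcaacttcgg
SLIT3: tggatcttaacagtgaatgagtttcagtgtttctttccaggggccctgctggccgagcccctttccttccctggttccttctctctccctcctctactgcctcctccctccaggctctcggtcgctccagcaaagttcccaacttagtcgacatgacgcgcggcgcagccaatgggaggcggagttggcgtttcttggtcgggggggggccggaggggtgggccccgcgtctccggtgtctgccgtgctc
A window was found for 27 of the 32 tested members, 42 windows in all. GGGCGG on either strand was in 31 of these (73.8%), against 42.6% of the 35116 windows of this length in the table, and the AP-1 letters TGANTCA were in 1 (2.38%, RGMB), against 6.57%. The E-box letters CACCTG were in 5 (11.9%, against 17.5%) and TATAAA in 1 (2.38%, against 10.7%), each read on both strands. The member windows were richer in G and C (median 67.4% against 58%) and in CpG (median 22 against 11). Windows of 1 gene overlap, and a match is only a description of the letters. The 35116 windows were not limited to tested genes, so these shares do not compare the members with other expressed genes.

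The microRNA genes are shown because the 2 hosts moved in opposite directions while the 5p arm is the same from both. MIR218-1 lies in intron 15 of the canonical SLIT2 transcript (GRCh37 chr4:20529898-20530007, plus strand), MIR218-2 in intron 14 of SLIT3 (chr5:168195151-168195260, minus strand), and neither overlaps an exon of its host. The mature sequences are from RefSeq (GRCh38.p14), with the seed, bases 2 to 8, in capitals.
hsa-miR-218-5p (both genes): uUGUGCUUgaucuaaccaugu
hsa-miR-218-1-3p (SLIT2): aUGGUUCCgucaagcaccaugg
hsa-miR-218-2-3p (SLIT3): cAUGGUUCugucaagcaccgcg
The poly(A) libraries do not measure mature microRNAs, and the 2 precursor genes had at most 2 counts in a library. The level of miR-218 was therefore not measured.

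Changes in the 3 tested Robo receptors were at most 0.51 in size on the log2 scale. ROBO1 (minus strand, chr3:78646389-79817148), the most abundant, was at 298, 252 and 268 CPM with NC siRNA and at 180, 193 and 203 CPM with BNC2 siRNA (log2 fold change -0.51, SE 0.07, adjusted p = 3.94e-06). ROBO4, known as the endothelial Robo, was at 48.4 ± 3.24 CPM and rose to 64.3 ± 0.954 CPM (log2 fold change 0.41, SE 0.07, adjusted p = 4.53e-05), in cells in which the endothelial markers CDH5 and PECAM1 were at or near 0. ROBO2 was not called, with 9.19 ± 1.07 and 10.4 ± 1.22 CPM and overlapping groups (log2 fold change 0.18, SE 0.13, adjusted p = 0.226). The summed Robo level per kb was 51.7 ± 4.10 CPM with NC siRNA and 43.8 ± 1.89 CPM with BNC2 siRNA (ratio 0.848).

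The netrins were led by different members in the different groups. NTNG2, a lipid-anchored netrin that does not bind DCC, lies on the plus strand of chr9:135037445-135119913. It fell 2.77-fold, from 110, 114 and 111 CPM to 41.3, 38.3 and 41.5 CPM (log2 fold change -1.47, SE 0.06, adjusted p = 4.59e-12). NTN1, the classical secreted netrin (plus strand, chr17:8924827-9147317), fell from 13.0, 12.4 and 10.1 CPM to 4.07, 3.27 and 2.55 CPM (log2 fold change -1.83, SE 0.16, adjusted p = 3.51e-08). In both genes every BNC2 siRNA library was below every NC siRNA library.

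NTN4, a netrin of basement membranes, rose from 58.4 ± 2.97 to 79.8 ± 4.86 CPM (log2 fold change 0.45, SE 0.07, adjusted p = 1.51e-05), and the scarce NTNG1 from 0.991 ± 0.182 to 2.15 ± 0.474 CPM (log2 fold change 1.10, SE 0.27, adjusted p = 0.0017). Per kb, NTNG2 was at 23.9 CPM and NTN4 at 16.1 CPM with NC siRNA, and at 8.64 and 22.0 CPM with BNC2 siRNA. The share of NTNG2 in the summed netrin level fell from 56.4% ± 1.44 to 27.3% ± 1.04 and that of NTN4 rose from 38.1% ± 1.38 to 69.6% ± 1.41 (SD, n = 3). The sum fell from 42.4 ± 1.04 to 31.7 ± 1.53 CPM per kb (ratio 0.747).

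All netrin receptors were scarce, at or below 10.1 CPM in the group means. NEO1, the receptor shared by netrins and RGM proteins (plus strand, chr15:73344051-73597546), rose 2.18-fold, from 4.96, 4.26 and 4.70 CPM to 9.60, 9.87 and 11.0 CPM (log2 fold change 1.13, SE 0.13, adjusted p = 9.18e-07). UNC5A and UNC5B, repulsive netrin receptors that are also known as dependence receptors, were both lower with BNC2 siRNA. Each passed the filter through the NC siRNA libraries alone, so that a level under 1 CPM with BNC2 siRNA was set by the filter, and each was also called without the filter (log2 fold changes -2.29 and -2.59). UNC5A went from 4.15 ± 1.02 to 0.826 ± 0.148 CPM (log2 fold change -2.32, SE 0.26, adjusted p = 6.33e-07), and UNC5B from 4.15 ± 0.81 to 0.669 ± 0.108 CPM (log2 fold change -2.62, SE 0.26, adjusted p = 1.24e-07).

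UNC5C rose from 0.896 ± 0.245 to 2.69 ± 0.516 CPM (log2 fold change 1.58, SE 0.27, adjusted p = 5.82e-05). Over the 6 libraries UNC5C had 184 counts on its own strand and 36 on the opposite one, an antisense share of 16.4%. No other tested member exceeded 5.26% (RGMA) in this share pooled over both groups. By group, UNC5C had 47 counts on its own strand and 21 on the opposite one with NC siRNA, and 137 and 15 with BNC2 siRNA. With counts of both strands its log2 fold change was 1.21, and it was still called. In summed level per kb the netrin receptors stood at 2.47 ± 0.391 and 2.03 ± 0.0581 CPM (ratio 0.821). NEO1 made up 27.0% ± 5.51 of it with NC siRNA and 70.4% ± 3.93 with BNC2 siRNA (SD, n = 3), while UNC5A went from 44.6% to 11.0%.

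RGMB, the more abundant RGM gene, fell. This anchored ligand (plus strand, chr5:98104354-98134347), which also acts as a BMP co-receptor, was at 192, 164.5 and 164 CPM with NC siRNA and at 110, 120.5 and 109 CPM with BNC2 siRNA (log2 fold change -0.61, SE 0.07, adjusted p = 5.6e-07). It held 99.7% of the summed RGM level with NC siRNA and 99.8% with BNC2 siRNA. RGMA passed the filter through the NC siRNA libraries alone, at 1.22 ± 0.11 and 0.501 ± 0.324 CPM (log2 fold change -1.25, SE 0.40, adjusted p = 0.0107), and was also called without the filter (-1.22). Its log2 fold change ran from -1.53 to -0.83 when a BNC2 siRNA library was left out, being smallest without replicate 3, and it did not pass the filter when an NC siRNA library was left out.

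The neuropilins exchanged their order. NRP2 (plus strand, chr2:206546714-206662857), the co-receptor known for binding SEMA3F and VEGFC, was at 125, 122 and 125 CPM with NC siRNA and at 340, 339 and 354 CPM with BNC2 siRNA. This 2.77-fold rise had the lowest adjusted p of the members (log2 fold change 1.47, SE 0.05, adjusted p = 6.84e-13). NRP1 (minus strand, chr10:33466420-33625190), the co-receptor known for SEMA3A and VEGFA, was at 298, 272 and 271 CPM and then at 146, 158 and 168 CPM (log2 fold change -0.83, SE 0.06, adjusted p = 4.58e-09). The libraries of the groups were apart for both genes.

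Per kb, NRP1 was at 49.7 CPM and NRP2 at 18.7 CPM with NC siRNA, and with BNC2 siRNA NRP1 was at 27.9 CPM and NRP2 at 51.8 CPM. NRP2 thus made up 27.4% ± 0.960 of the neuropilin level in the first group and 65.1% ± 1.18 in the second (SD, n = 3), and the sum went from 68.4 ± 2.85 to 79.7 ± 3.03 CPM per kb (ratio 1.17). Without scaling by transcript length the share of NRP2 was 30.7% and 68.7%.

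**Figure D3:**
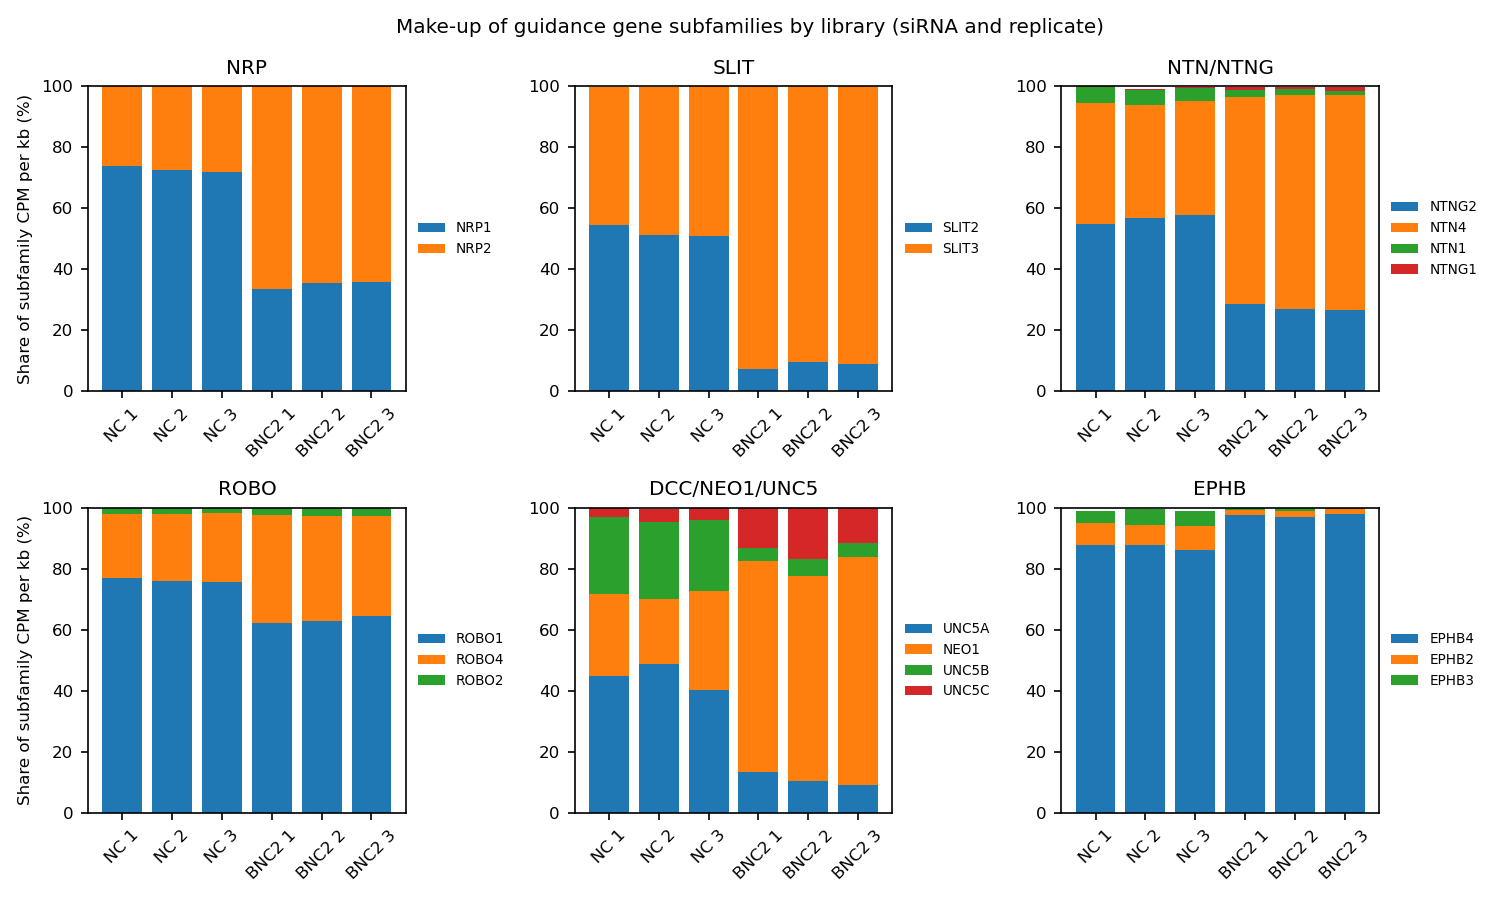
Stacked share of each gene in the summed CPM per kb of its subfamily (%), for 6 subfamilies, with a bar for each library labelled by siRNA and replicate. Genes with a very small share are not drawn, so that some bars end just under the top. In each subfamily shown the 3 NC siRNA bars resemble each other and differ from the 3 BNC2 siRNA bars, with NRP2, SLIT3, NTN4, NEO1, ROBO4 and EPHB4 taking larger shares with BNC2 siRNA.

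For the summed levels of the subfamilies per kb, the ratio of BNC2 siRNA to NC siRNA was 1.07 for EPHA, 1.08 for EPHB, 1.17 for the neuropilins and 1.28 for the Slits, and it was 0.872 for the A-type ephrins. It was lowest for the B-type ephrins (0.647) and the RGM genes (0.652). Without scaling by length it was 0.997 for EPHB, 1.01 for the A-type ephrins and 1.03 for the netrin receptors, so that the direction for these 3 sums depends on the scaling. These sums and shares are descriptions and were not tested.

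Of the 13 members that were not tested, most were scarcely detected. EPHA1 and UNC5D had 0 counts in all 6 libraries, and a count of 0 allows up to 0.168 to 0.191 CPM per library. EPHA7, EPHA8, EPHA10, EPHB1, NTN3, SLIT1, ROBO3 and DCC had at most 6 counts in a library. The other 3 had more counts with NC siRNA. EPHB6, an Eph receptor without kinase activity, had 12, 8 and 15 counts against 1, 2 and 0, a ratio of 11.9 with an exact 95% counting interval of 3.76 to 60.6. NTN5 had 1, 11 and 6 counts against 0, 1 and 0 (ratio 18.4, interval 2.90 to 766), and EFNA2 8, 18 and 12 against 7, 6 and 2 (ratio 2.59, interval 1.39 to 5.07). These intervals cover counting error only. Tested without the filter on low counts, the 3 genes had adjusted p-values of 7.54e-05, 0.00389 and 0.0421, and 12 members were higher and 20 lower out of 43 (74.4%), against 53.3% of the 18121 genes in that fit.

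The signalling partners of these molecules were counted from a list of 88 genes, of which 87 were in the table and 74 were tested. Of these, 34 were higher and 24 lower (78.4% called, 45.9% higher and 32.4% lower), near the 72.9%, 36.6% and 36.2% of all genes, and the median change was 0.14 on the log2 scale. Of the 74 tested, 20 were called with a change of at least 1 in size (27.0%, against 18.1% of all genes). Among them, SRGAP3 was below 1 CPM in every NC siRNA library and FLT4 in every BNC2 siRNA library. Both passed the filter through a single group and were bound to differ. The partners were not counted again among genes above 1 CPM in all libraries. In the Eph and ephrin group 11 of 25 were higher and 8 lower, and in the Slit and Robo group 7 of 12 were higher and 2 lower. The netrin and RGM group had 8 of 11 higher and 2 lower, the neuropilin group 4 of 15 higher and 8 lower, and the shared cytoskeletal group 4 of 11 higher and 4 lower.

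Downstream of netrin receptors, DOCK1, an exchange factor for Rac, rose from 36.9 ± 0.817 to 115 ± 1.39 CPM (log2 fold change 1.64, SE 0.06, adjusted p = 8.72e-13). MAGED1, which binds UNC5 proteins, rose from 158 ± 2.55 to 445 ± 14.3 CPM (log2 fold change 1.49, SE 0.05, adjusted p = 6.45e-13). Among the kinases that act on actin, LIMK1, which phosphorylates cofilin, went from 12.4 ± 0.938 to 42.4 ± 1.67 CPM (log2 fold change 1.77, SE 0.09, adjusted p = 2.07e-11). ROCK2, a kinase that raises actomyosin tension, went from 57.9 ± 6.55 to 128 ± 6.19 CPM (log2 fold change 1.14, SE 0.08, adjusted p = 9.36e-10). Its more abundant relative ROCK1 was lower, from 193 ± 21.4 to 161 ± 7.71 CPM (log2 fold change -0.26, SE 0.07, adjusted p = 0.004). Of this cytoskeletal group of 11, 4 were higher and 4 lower, the latter being ROCK1, RHOA, CDC42 and CFL1.

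The largest decrease among the tested partners was that of FYN, a Src-family kinase that acts with Eph receptors and ephrins, from 18.2 ± 0.748 to 2.22 ± 0.475 CPM (log2 fold change -3.02, SE 0.15, adjusted p = 1.6e-11). SDCBP, the PDZ protein syntenin that binds the tails of B-type ephrins, fell from 370 ± 17.0 to 119 ± 3.88 CPM (log2 fold change -1.64, SE 0.06, adjusted p = 4.57e-13). CRKL, an adaptor, fell from 99.2 ± 6.95 to 40.3 ± 2.43 CPM (log2 fold change -1.30, SE 0.07, adjusted p = 9.1e-11). The ligands of neuropilins were split, SEMA3A rising (log2 fold change 1.44, SE 0.09, adjusted p = 5.32e-10) and SEMA3D and SEMA3F falling (-2.04 and -2.44, SE 0.09 and 0.16, adjusted p = 8.43e-12 and 7.61e-10).

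**Figure D4:**
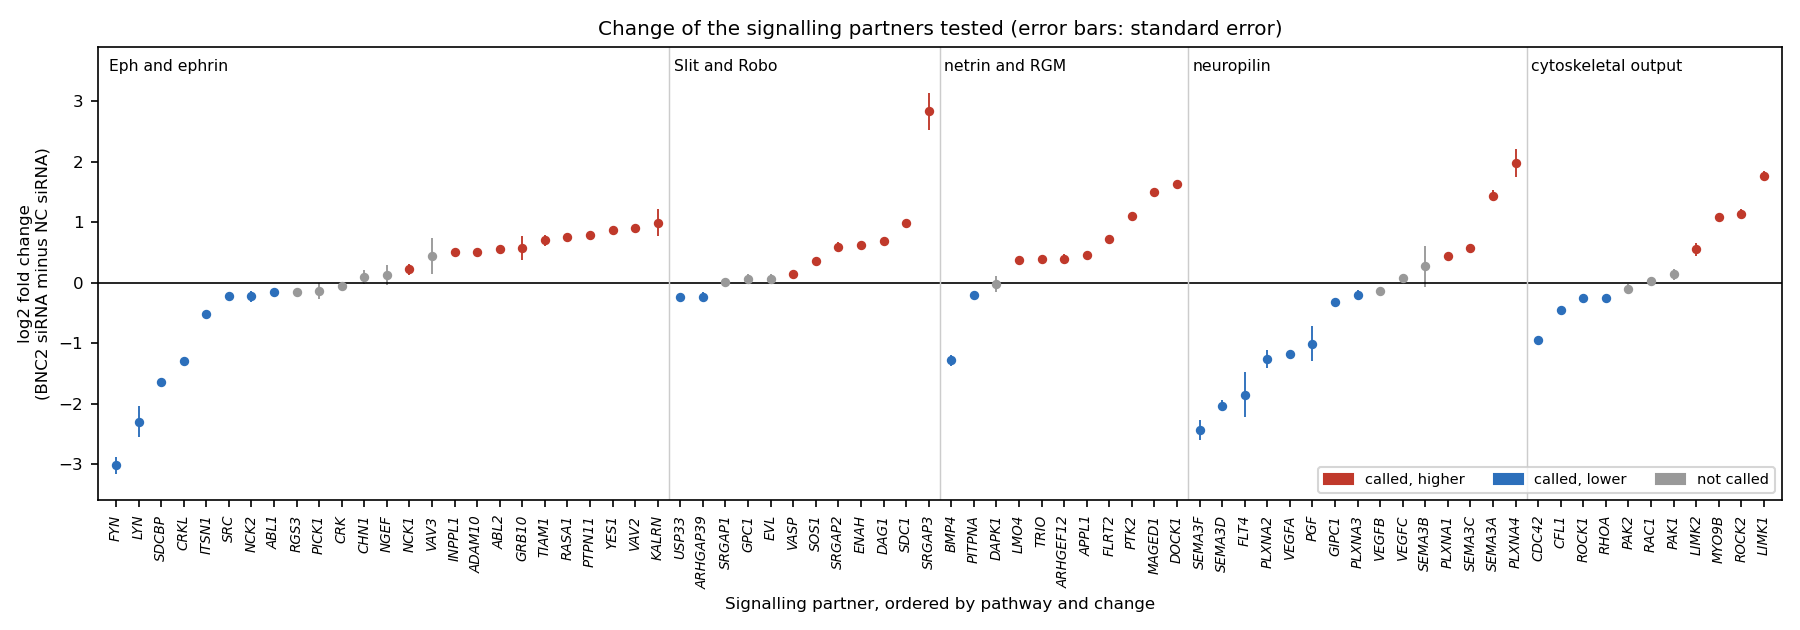
Log2 fold change of the 74 tested signalling partners, BNC2 siRNA minus NC siRNA, with the standard error as bars, grouped by pathway and ordered by change within a group, red for called higher, blue for called lower and grey for not called. FYN is the lowest point, at -3.02, and SRGAP3, a Robo effector, the highest at 2.83, from 0.623 to 4.55 CPM. SRGAP3 was below 1 CPM in every NC siRNA library. It passed the filter through the BNC2 siRNA libraries alone and was therefore bound to differ.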

How the data were processed

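Poly(A) RNA of 6 BT549 cultures was sequenced as single-end reads. The authors aligned the reads to hg19 with STAR 2.6.1d and the iGenomes UCSC annotation (versions per the submitters' notes) and deposited STAR's gene counts, unique reads over 1 gene, without normalisation. The series table equals the reverse-strand column of the library tables. Reads given to no gene (37.7% to 41.1% per library) were left out. Every column could be assigned to a sample, so the number of columns not used was 0.

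Libraries were scaled by TMM (factors 0.972 to 1.04) in edgeR 4.0.16 (R 4.3.3). The 12186 genes above 1 CPM in 3 or more libraries were compared by the quasi-likelihood test over all 6 libraries, without a block, with Benjamini-Hochberg adjustment over all of them, and called at an adjusted p of at most 0.05. CPM values are TMM-normalised and the SE is the log2 fold change divided by the root of F. An exact permutation test of 3 against 3 cannot go below 0.1. The script was tested on simulated counts. Levels were compared between genes per kb of the GENCODE 44 canonical transcript (GRCh37). Sequences came from RefSeq tables and the study's list of siRNAs; protein sequences were not used here. Python 3.11.15 was used for sequences and plots.

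Members given in full were those called with a log2 fold change of 1 or more in size and 5 CPM or more in the mean of the higher group, and the most abundant of each subfamily. Partners named were the 5 largest rises and 5 largest falls called, without overlap and at 5 CPM. SRGAP3, FLT4, ROCK1, RHOA, CDC42, CFL1, SEMA3C and the VEGF genes were named after their values were seen. Members and lists were chosen with earlier results of these data known. As alternatives, the likelihood ratio test (which the study used), DESeq2 1.42.0, its size factors within edgeR, total counts alone, no filter, filterByExpr, unstranded counts, a replicate block and leave-one-out fits were run, and, added after seeing the data, levels without scaling by length. Of the leukocyte markers listed, 1 is not reported here.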

Additional observations from a re-analysis of the deposited data

How the results depend on the processing

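The number of members called higher was 12 under every alternative run. The number called lower was 17 under all except no filter (20) and leaving out single libraries (12 to 17), where fewer members passed the filter when an NC siRNA library was removed (28 in place of 32). All 29 members called remained called under the 8 alternatives that keep every library, and 24 to 29 did when one was left out. Of 590 values of single genes under alternatives, 581 kept their direction and side of the threshold, 2 lost the threshold (EFNA3, without NC siRNA replicate 3 or BNC2 siRNA replicate 3) and 7 changed sign, all in genes that were not called. EPHA2 was at -0.0026 with total counts only. EFNA4 was at -0.00054 with DESeq2, -0.068 with total counts only and -0.0015 with the replicate block, and ran from -0.15 to 0.12 when single libraries were left out. The median log2 fold change over the members, -0.46, was -0.54 with total counts only, -0.59 without a filter, and ran from -0.49 to 0.064 when single libraries were left out, where the set of members tested also changed. Without an NC siRNA library the filter removed EPHB3, UNC5A, UNC5B and RGMA, all lower. The fits with a library left out thus cannot show how stable this median is, and no direction for the set is read from it. Partners called were 31 to 34 higher and 21 to 27 lower.

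Replicate numbers did not pair the libraries: same-numbered libraries had correlations of deviations of -0.29, -0.10 and -0.17. With the replicate block 12 members were higher and 17 lower, and 8400 in place of 8879 genes were called. Of 198 values of shares and sums, 196 moved by less than the replicate spread under the alternatives with scaling by length, and with total counts only the ratio of sums was 1.02 for EPHA and 0.614 for the B-type ephrins. Without scaling by length 17 of 22 moved by more than that spread, among them the share of EPHB4 with NC siRNA (78.7% against 87.2%) and of ROBO1 with BNC2 siRNA (72.0% against 63.2%). Counts limit EPHA6, RGMA, NTNG1 and UNC5C, with means at or below 2.69 CPM, and the 13 members that were not tested.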
